A study of Mus musculus with 123 samples.

Results

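The potassium channel genes are 49 genes that code for the pore-forming, modifier and auxiliary subunits of voltage-gated, inward rectifier, leak, calcium-activated and sodium-activated potassium channels. They were chosen by symbol out of the 24134 genes of the deposited tables. Their RNA was followed in sensory neurons of the mouse dorsal root ganglion (DRG) after sciatic nerve transection (SNT). In the pooled neurons of day 3, 17 of the 46 members that could be tested fell (37%, against 7.114% of all genes tested). Another 3 rose (6.52%, against 8.85% of all genes), and none of these kept its call in every other fit. The summed level of all 49 members was 1816 CPM (counts scaled to the library total, in pools after adjustment of the totals by TMM factors) ± 10.8 (SD, n = 3 libraries) on the SNT side against 3374 ± 76.7 (n = 3) on the control side.

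Potassium channels let potassium leave the neuron, which holds the resting potential, ends the action potential and sets how easily a neuron fires again. Each channel is built from pore subunits, of which silent members of the Kv family form no channel alone and only modify Kv2 partners, and from auxiliary subunits such as Kv beta, the KChIP proteins of Kv4 channels and the beta subunits of BK channels. In sensory neurons, Kv1 channels lie beside the nodes of myelinated axons, Kv4 channels carry a rapidly inactivating current of small neurons, and KCNQ channels carry the M current. A loss of potassium currents is a known feature of sensory neurons whose axon has been cut.

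All mice were adults of 2 months with the right sciatic nerve cut, and the control side was the uncut side of the same mice. At day 3 the mice were F1 animals from CAST/Eij males and C57BL/6 females. From them came 41 SNT-side and 18 control-side single neurons, after 11 outliers that the authors had removed, and 3 pooled libraries a side. At day 7 the mice were C57BL/6 of both sexes, with 33 SNT-side neurons (16 female, 17 male) and 14 control-side neurons (7 and 7). Neurons were picked by hand from dissociated lumbar ganglia and amplified by Smart-seq2, a full-length method without molecular identifiers. The SNT side of these mice also holds neurons whose axons do not run in the sciatic nerve.

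Several facts of the samples limit every comparison below. The 3 pooled libraries of a side are parts of 1 lysate of neurons, so p-values measure the spread between parts of 2 pools and not between mice. The labels name no animal for the single neurons, so the cells of a side and day are 1 sample, and their differences have no test. In the table of pools, names of columns and identifiers under them assign the sides in opposite ways, and the source label calls all 6 intact; the names were used, and under the identifiers every pooled difference would change sign. The injury genes Atf3, Sprr1a and Gal summed to between 6801 and 7396 CPM in the libraries named SNT and to between 15.1 and 39.3 CPM in those named control. Total counts lay between 1148849 and 2003817 in the SNT pools and between 563462 and 839135 in the control pools. Single neurons held between 261351 and 1849130 counts.

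Sums of marker genes of cell types in the pools also differed between sides. Such sums, those of the injury genes included, were scaled by library totals without TMM factors. All 6 marker genes of nonpeptidergic nociceptors were lower on the SNT side (summed 459 to 472 CPM against 3146 to 3262), as were all 5 of C-LTMRs, the unmyelinated low-threshold touch neurons (92.1 to 147 against 896 to 1035). For large myelinated neurons 4 of 7 markers were higher (1102 to 1174 against 761 to 790). Of the 10 markers of satellite glia and Schwann cells 5 were lower and 1 was higher (6156 to 6951 against 12636 to 15313). Of 5 peptidergic nociceptor markers 1 was higher and 1 lower (1185 to 1322 against 1680 to 2128), and of 5 pan-neuronal markers Tubb3 alone was called, higher (12380 to 14175 against 6706 to 7579). Immune markers summed to at most 16.7 CPM in any pool. In such pools, fewer neurons of a type and less RNA per neuron cannot be told apart, and the part of these marker shifts in the potassium channel results was not tested.

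The pools were compared by the quasi-likelihood test of edgeR, and p-values were adjusted over 13509 genes (Benjamini-Hochberg). A gene was called at an adjusted p below 0.05 with a log2 change beyond 1. Of all genes tested, 7.114% were called lower and 8.85% higher (16% in all, and 24.8% at the adjusted p alone), whereas 17 of 46 members (37%) were called lower and 3 (6.52%) higher. The median log2 change was -0.83 over the members and 0.02 over all genes. Scaled by library size alone, the median of all genes moved to -0.14, the share of higher genes among those called from 55.4% to 43.7%, and the members to 20 lower and 1 higher. In 21 members every SNT library lay below every control library, against 16.6% of all genes, and in 5 members every SNT library lay above, against 21.1%. Kcnd2, Kcnmb2 and Kcnn3 did not reach a mean of 1 CPM and were not tested.

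**Figure D1:**
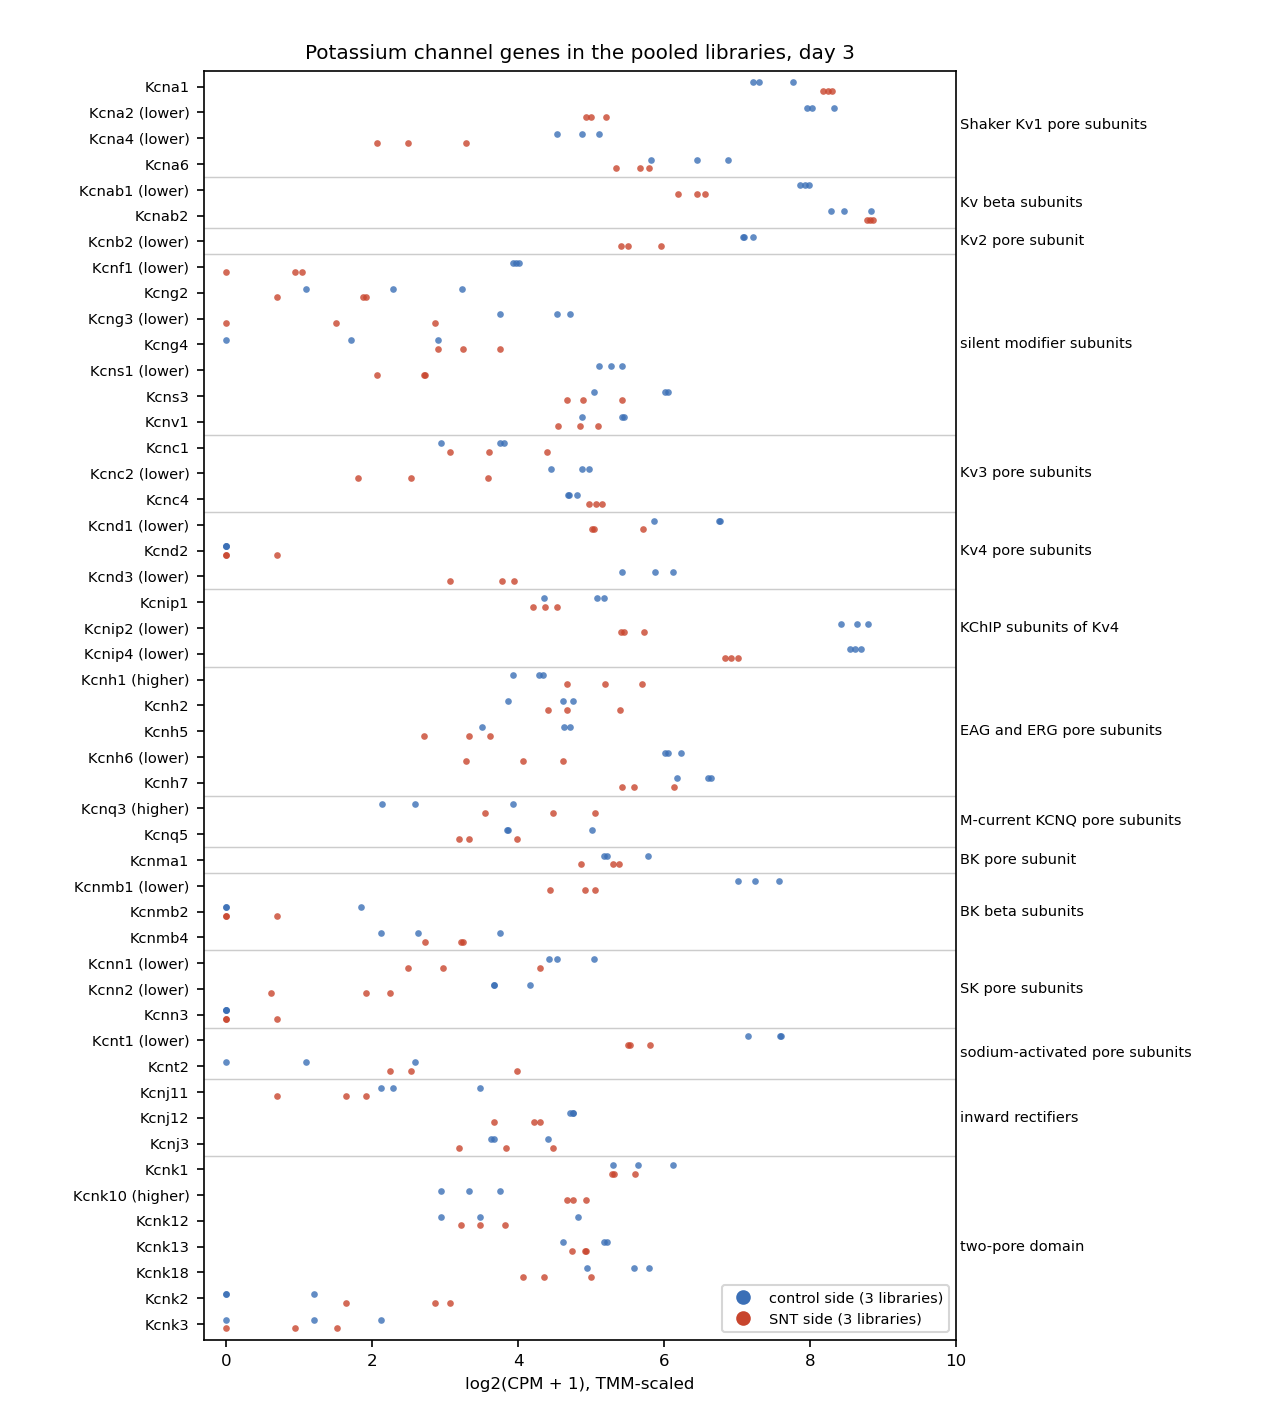
Level of each of the 49 members in the 6 pooled libraries of day 3, as log2 of TMM-scaled CPM + 1, with blue points for the 3 control libraries and red points for the 3 SNT libraries, grouped by channel family; genes called are marked. The 17 members called lower have all 3 red points left of all blue points, and Kcnq3, called higher, has overlapping points.

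Among the Shaker-type Kv1 pore subunits, which give the low-threshold current that limits repetitive firing, Kcna2 fell and Kcna1 did not. Kcna2 (chr3:107101146-107115005, GRCm38, plus strand) was at 258, 247 and 319 CPM in the control libraries and at 29.4, 36 and 30.9 CPM in the SNT libraries. All SNT values lay far below the control values, and the log2 change was -3.10 (SE 0.19, adjusted p = 2.2e-16). Kcna1 (chr6:126640397-126646384, minus strand) was at 216, 147 and 156 CPM in control and at 303, 287 and 313 CPM in SNT libraries. Its groups did not overlap either, in the other direction, and a difference of 0.80 in log2 (SE 0.16, adjusted p = 0.00014) passed the adjusted p but not the limit on size.

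Divided by transcript length, Kcna1 stood at 1.41 to 2.40 times the level of Kcna2 in the control libraries and at 22.9 to 29.6 times in the SNT libraries. The 4 Kv1 pore genes summed to 562 CPM ± 52.1 (SD, n = 3) in control and 387 ± 9.04 (n = 3) in SNT libraries. Divided by transcript length, they summed to 87.3 CPM per kb ± 11.6 (SD, n = 3) and 86.9 ± 2.67 (n = 3). Kcna4, which forms rapidly inactivating channels, fell from 22.1, 28.3 and 33.6 CPM to 8.75, 4.62 and 3.2 CPM (log2 change -2.31, SE 0.46, adjusted p = 0.00016). Kcna6 had a log2 change of -0.87 (adjusted p = 0.006), inside the limit on size.

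Of the cytoplasmic Kv beta subunits, which bind Kv1 channels, one fell and the other was not called. Kcnab1 was at 252, 242 and 230 CPM in control and at 93.1, 72.0 and 86.4 CPM in SNT libraries (log2 change -1.52, SE 0.17, adjusted p = 2.5e-09). Kcnab2 was at 312, 453 and 353 CPM against 437, 451 and 463 CPM, and its groups overlapped (log2 change 0.27, adjusted p = 0.17). Together they took 18.2% ± 1.72 (SD, n = 3) of the summed member CPM in control and 29.4% ± 0.91 (n = 3) in SNT libraries. The mean of Kcnab2 was lower on the SNT side in the single neurons of day 3, as given below.

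The Kv4 channels and their KChIP partners carried the largest loss of counts. KChIP proteins bind the pore subunit, bring it to the membrane and slow its inactivation. Kcnip2 (chr19:45791839-45816061, minus strand) was at 399, 441 and 341 CPM in control and at 51.9, 41.5 and 42.6 CPM in SNT libraries (log2 change -3.11, SE 0.17, adjusted p = 1.1e-17). Kcnip4 was at 390, 374 and 412 CPM against 128, 113 and 119 CPM (log2 change -1.70, SE 0.15, adjusted p = 6e-12). For both genes no SNT library came near a control library. Kcnip1 did not pass (log2 change -0.56, adjusted p = 0.25), and it overlaps Kcnmb1 on the opposite strand, so their reads may be mixed where counting ignored strand.

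The 3 KChIP genes summed to 815 CPM ± 30.1 (SD, n = 3) in control and 185 ± 10.7 (n = 3) in SNT libraries, 4.40 times less. Their pore partners fell too. Kcnd1 was at 57.1, 107 and 108 CPM in control and at 31.9, 31.4 and 51.2 CPM in SNT libraries (log2 change -1.22, SE 0.25, adjusted p = 0.0003). Kcnd3 was at 68.8, 57.8 and 42 CPM against 14.4, 7.39 and 12.8 CPM (log2 change -2.25, SE 0.33, adjusted p = 7.6e-07). Kcnd2 was at 0 in all but 1 of the 6 libraries.

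The Kv2 pore gene Kcnb2, part of the main delayed rectifier, was at 148, 135 and 136 CPM in control and at 44.4, 60.9 and 41.6 CPM in SNT libraries (log2 change -1.53, SE 0.21, adjusted p = 1.8e-07). Of the 7 silent subunits, which need such a partner, 3 fell and none rose at this threshold. Kcns1 was at 37.7, 41.9 and 33.6 CPM against 5.63, 5.54 and 3.2 CPM (log2 change -3.00, SE 0.42, adjusted p = 4.2e-07). Kcnf1 was at 14.3, 14.7 and 15.1 CPM against 0, 0.923 and 1.07 CPM.

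Kcnf1 thus nearly vanished from the SNT pools. It rested on 3 counts there and 33 in the control pools, a ratio of the levels by library totals of 24.9 with a counting interval of 7.82 to 127 (95%, exact, counting error only), and its adjusted p was 0.0001. Kcng3 was at 22.1, 12.5 and 25.2 CPM in control and at 6.25, 1.85 and 0 CPM in SNT libraries (log2 change -2.83, SE 0.66, adjusted p = 0.0011). Kcns3 had a log2 change of -0.79 (adjusted p = 0.041) with overlapping groups. Kcng2, Kcng4 and Kcnv1 did not pass, at log2 changes of -1.04, 1.56 and -0.43 (adjusted p = 0.5, 0.12 and 0.33).

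Among the Kv3 genes, whose channels repolarize fast-spiking neurons, only Kcnc2 was called. It was at 20.8, 28.3 and 30.3 CPM in control and at 2.50, 11.1 and 4.80 CPM in SNT libraries (log2 change -2.19, SE 0.48, adjusted p = 0.00055). Kcnc1 and Kcnc4 had log2 changes of 0.25 and 0.36 (adjusted p = 0.77 and 0.44).

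The EAG and ERG genes moved in both directions. Kcnh6, an ERG-type pore gene, was at 63.6, 65.7 and 74.0 CPM in control and at 8.75, 15.7 and 23.5 CPM in SNT libraries (log2 change -2.05, SE 0.31, adjusted p = 1.3e-06). Kcnh1, the EAG-type gene, was at 14.3, 19.3 and 18.5 CPM against 35.6, 50.8 and 24.5 CPM (log2 change 1.06, SE 0.35, adjusted p = 0.021). Its call was lost with DESeq2 (adjusted p = 0.071) and without control library 1 (0.092) or SNT library 1 (0.051) or 2 (0.16). Kcnh7 had a log2 change of -0.76 (adjusted p = 0.012), and Kcnh2 and Kcnh5 did not pass (0.49 and -1.15, adjusted p = 0.35 and 0.067).

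Of the KCNQ genes, Kcnq3 was at 14.3, 3.4 and 5.04 CPM in control and at 21.3, 32.3 and 10.7 CPM in SNT libraries. The groups overlapped, the log2 change was 1.44 (SE 0.51, adjusted p = 0.035), and DESeq2 did not call it (adjusted p = 0.1). It also lost its call without control library 2 (adjusted p = 0.17) or 3 (0.12) and without SNT library 1 (0.084) or 2 (0.21). Kcnq5 had a log2 change of -0.91 (adjusted p = 0.15).

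Among calcium-activated channels an auxiliary subunit and both small-conductance genes that could be tested fell. Kcnmb1, the beta subunit that raises the calcium sensitivity of BK channels, was at 151, 189 and 128 CPM in control and at 20.6, 32.3 and 29.3 CPM in SNT libraries (log2 change -2.53, SE 0.23, adjusted p = 9.3e-12). The BK pore gene Kcnma1 was at 36.4, 35.1 and 53.8 CPM against 28.1, 40.6 and 38.4 CPM, with overlapping groups (log2 change -0.21, adjusted p = 0.65). Kcnmb4 did not pass (log2 change 0.02, adjusted p = 0.98).

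The SK channels, which contribute to the afterhyperpolarization, are coded by Kcnn genes. Kcnn2 was at 11.7, 17 and 11.8 CPM in control and at 3.75, 2.77 and 0.533 CPM in SNT libraries (log2 change -2.54, SE 0.69, adjusted p = 0.0051). Kcnn1 was at 22.1, 20.4 and 31.9 CPM against 6.88, 4.62 and 18.7 CPM (log2 change -1.19, SE 0.44, adjusted p = 0.043). Kcnn1 was the weakest of the calls among the falls: DESeq2 gave an adjusted p of 0.098, and leaving out control library 1 or 3, or SNT library 1 or 2, gave 0.072, 0.18, 0.19 and 0.18. Kcnt1, a sodium-activated pore gene, was at 142, 191 and 193 CPM against 55.0, 45.2 and 44.2 CPM (log2 change -1.86, SE 0.20, adjusted p = 8.9e-10). Kcnt2 stayed under 15 CPM in all libraries and did not pass (log2 change 1.95, adjusted p = 0.13).

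The leak channels of the K2P family and the inward rectifiers held no call in the lower direction. Kcnk10 (TREK2), a mechanically and thermally gated leak channel, was at 9.09, 12.5 and 6.73 CPM in control and at 29.4, 25.8 and 24.5 CPM in SNT libraries (log2 change 1.45, SE 0.40, adjusted p = 0.0062), with no overlap. Its call was lost when libraries were thinned to the smallest one (log2 change 1.22, adjusted p = 0.067). Kcnk18 (TRESK), a leak channel known from nociceptors, had a log2 change of -0.96 (adjusted p = 0.022), just inside the limit on size, and overlapping groups. Kcnk2 was at 1.30, 0 and 0 CPM against 6.25, 7.39 and 2.13 CPM (adjusted p = 0.057). The other K2P members, Kcnk1, Kcnk3, Kcnk12 and Kcnk13, and the 3 inward rectifiers Kcnj3, Kcnj11 and Kcnj12 did not pass.

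The order of levels changed with these falls. Per kb of transcript, Kcnip2 and Kcnip4 led in the control libraries at 164 CPM per kb each, with overlapping ranges, followed by Kcnab2 (95), Kcnab1 (74.4) and Kcna1 (42.9). In the SNT libraries Kcnab2 led at 115 CPM per kb, followed by Kcna1 (74.7), Kcnip4 (50.1) and Kcnab1 (25.8), each above the next without overlap, while Kcnip2 was at 18.9. Kcna2 went from the 8th to the 27th place among the 49.

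In single neurons of day 3 the same measure was the log2 ratio of mean CPM + 1 of the 41 SNT-side and 18 control-side cells, with no test. Of 48 members with a mean of at least 1 CPM, 24 lay below -1 and 1 above 1, where 6.07% and 7.121% of all genes did (13.2% in either direction). The median was -1.01 over the members and -0.04 over all genes. All 17 members that fell in the pools were also below 0 in the cells, 14 of them below -1, and 37 of all 48 members were below 0. The 3 members that rose in the pools were at 0.006 (Kcnh1), 0.81 (Kcnk10) and 0.86 (Kcnq3) in the cells, none beyond 1. The median SNT-side cell had 7356 CPM of the 3 injury genes and the median control cell 31.2, but SNT-side cells ranged from 6.50 to 33677 CPM. Marker sums differed less than in the pools for glia (medians 3813 and 3770 CPM) and large myelinated neurons (298 and 228). Lower medians on the SNT side were those of nonpeptidergic (1059 and 1759), peptidergic (1281 and 2340) and C-LTMR markers (23.7 and 106). The means of these 3 types were lower too (1390 and 2694, 2653 and 6159, 104 and 1131). The part of the markers in the ratios was not tested.

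Kcna2 ranged from 15 through a median of 150 to 970 CPM in control cells and from 0 through 18.5 to 588 CPM in SNT-side cells. It exceeded 10 CPM in all 18 control cells and in 26 of 41 SNT-side cells (63.4%, exact 95% interval 46.9% to 77.9%), and 18 SNT-side cells lay below the lowest control cell (log2 ratio -2.23). Kcna1 by contrast had medians of 88.4 and 107 CPM, and no SNT-side cell stood above the highest control cell (1009 CPM, log2 ratio -0.24). The direction of Kcna1 in the cells turned with the measure, with a log2 ratio of 0.09 without the highest cell and 192 against 166 CPM over summed counts.

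Kcnb2 and Kcnd1 separated the sides for most cells. Kcnb2 ranged from 49.7 through 141 to 266 CPM in control and from 0 through 22.1 to 264 CPM in SNT-side cells, of which 30 lay below every control cell (log2 ratio -1.51). Kcnd1 ranged from 30.3 through 139 to 212 CPM against 5.21 through 27.7 to 262 CPM, with 25 cells below every control cell (log2 ratio -1.42). Kcnj12, an inward rectifier gene not called in the pools, behaved alike: 13 through 42.3 to 130 CPM against 0.744 through 11.7 to 60.5 CPM, with 23 cells below every control cell (log2 ratio -1.59). Kcna4, at medians of 34.4 and 1.58 CPM, had 25 such cells (log2 ratio -1.85). Kcnab2, not called in the pools, ranged from 209 through 461 to 694 CPM against 55.8 through 263 to 637 CPM. Of its SNT-side cells, 16 lay below every control cell and 0 above every control cell (log2 ratio -0.77).

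Other members were uneven already among control cells. Kcnip2 ranged from 0 through 269 to 1156 CPM in control cells, with 11 of 18 above 10 CPM, and from 0 through 4.85 to 795 CPM in SNT-side cells, with 15 of 41 above (log2 ratio -1.88). Kcnmb1 ranged from 0 through 82.5 to 585 CPM against 0 through 2.05 to 274 CPM (log2 ratio -2.33), and Kcnt1 from 5.85 through 177 to 706 CPM against 0 through 23.8 to 529 CPM (log2 ratio -1.53). Kcnd3 was at medians of 37.5 and 1.28 CPM (log2 ratio -2.71), the lowest ratio among the 48 members. In each of these genes some SNT-side cells kept a level like that of the control cells.

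Further members met the size limit of -1 with at least 10 CPM in control cells. Kcnab1 (medians 100 and 21.1 CPM, log2 ratio -1.26), Kcnh6 (41.2 and 26.6 CPM, -1.21), Kcnn1 (47 and 3.65 CPM, -1.18), Kcng3 (11.7 and 0 CPM, -1.32), Kcns1 (11.1 and 0.652 CPM, -1.17) and Kcnf1 (0 and 0 CPM, mean 29 and 3.95, -2.60) were members that fell in the pools. Kcnh7 (53.6 and 18.6 CPM, log2 ratio -1.04), Kcnk18 (35.5 and 0.643 CPM, -1.06), Kcns3 (44.8 and 12.1 CPM, -1.11) and Kcng2 (9.23 and 0 CPM, -1.41) were not called there. Without the highest control cell, Kcnh6, Kcnh7, Kcnk18, Kcnn1, Kcns1 and Kcns3 came to lie between -0.83 and -0.98. Kcnip1 (15.1 and 2.56 CPM, -2.33), Kcnq5 (18.2 and 0.908 CPM, -2.23), Kcnv1 (32.9 and 0.652 CPM, -2.03) and Kcnc4 (0 and 0 CPM, mean 43.4 and 15.6, -1.42) were the remaining members of this kind, and Kcnq5 was at -1.51 without its highest control cell. Kcnn3, mean 5.59 and 0.374 CPM, rested on 3 control cells (log2 ratio -2.26, and -1.57 without the highest).

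Kcnmb4, the neuronal BK beta subunit, was the single member above 1. It ranged from 0 through 3.67 to 21.6 CPM in control cells and from 0 through 8.03 to 80.9 CPM in SNT-side cells, of which 14 of 41 stood above every control cell (log2 ratio 1.57, and 1.43 without the highest cell). The pooled libraries showed no such difference at 3.4 to 12.5 CPM in control and 5.63 to 8.53 CPM in SNT. Antisense genes overlap Kcnmb4, and no source says that reads were counted by strand. Kcnip4, which fell in the pools, had medians of 336 and 142 CPM in the cells (log2 ratio -0.80), and Kcnc2 and Kcnn2 were at -0.37 and -0.88.

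**Figure D2:**
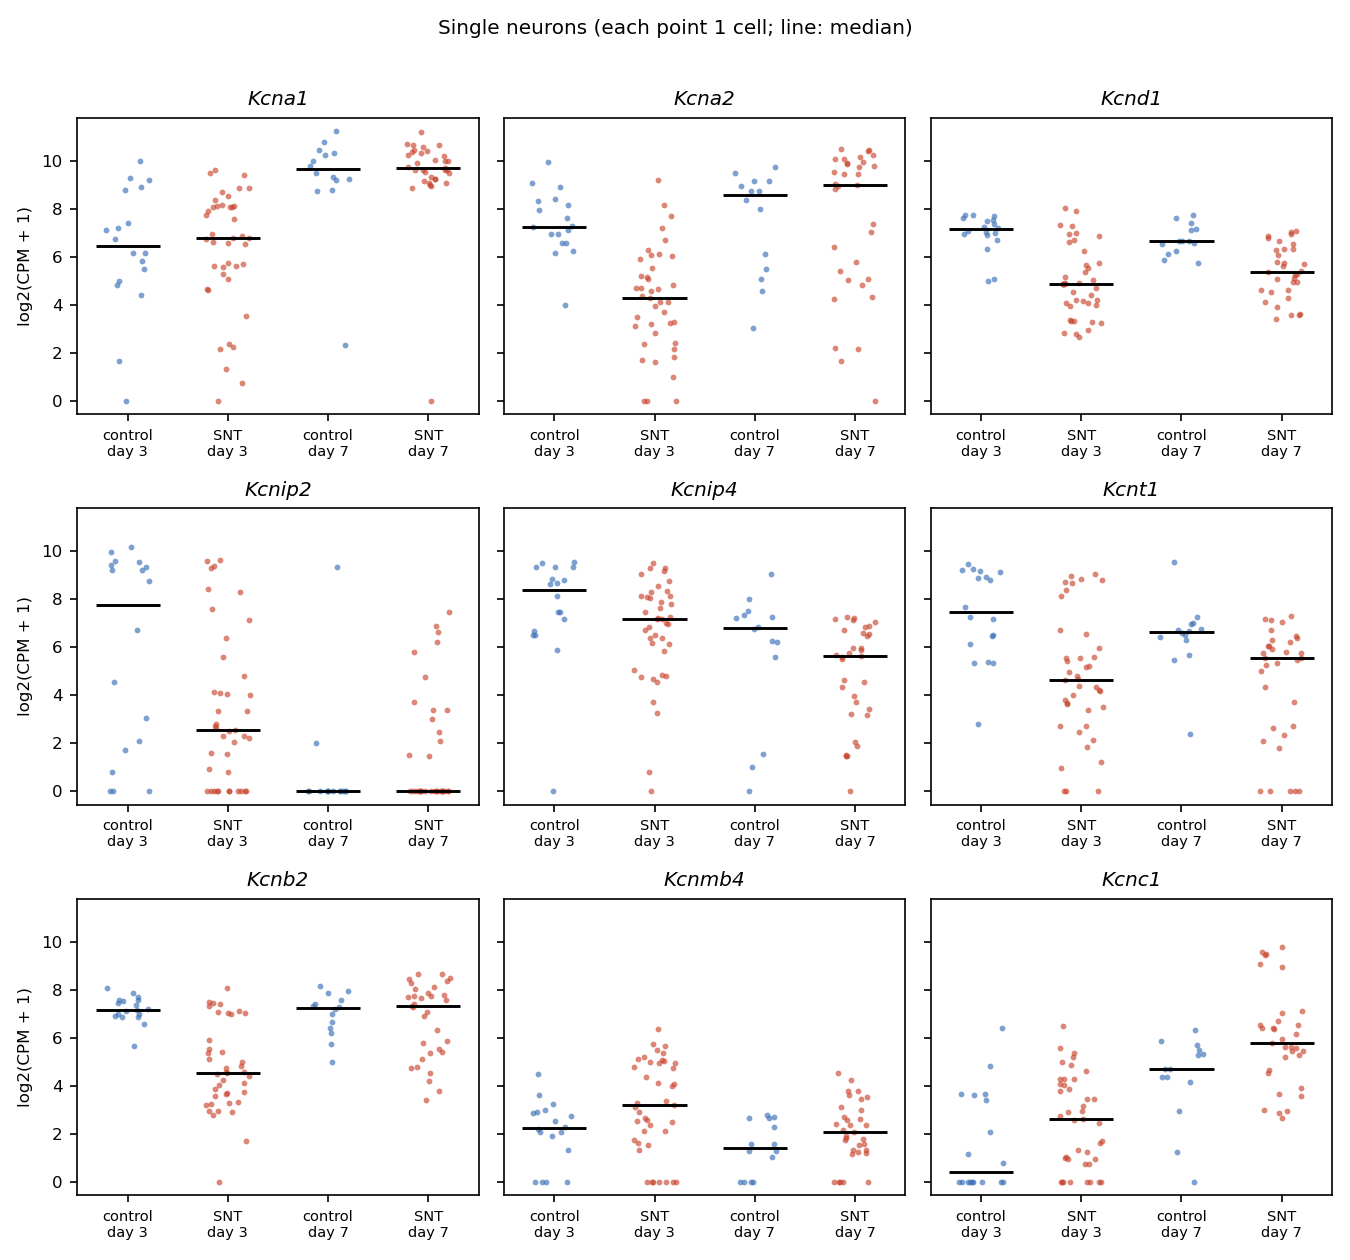
Level of 9 members in single neurons as log2 of CPM + 1, each point 1 cell and each line the median, for control side (blue) and SNT side (red) at day 3 (18 and 41 cells) and day 7 (14 and 33 cells). Kcna2 and Kcnb2 have lower medians on the SNT side at day 3 but not at day 7, whereas Kcnd1, Kcnip4 and Kcnt1 have lower medians at both.

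At day 7 the members lay on both sides of 0. Of 46 with a mean of at least 1 CPM, 13 lay below -1 and 7 above 1, where 3.49% and 6.37% of all genes did (9.86% in either direction), and the median was -0.07 against -0.03 over all genes. Among the 33 members with a mean of at least 10 CPM, 11 lay below -1 and 2 above 1. The shares of all genes beyond these limits were not counted at 10 CPM, so these 2 counts have no background beside them. The median of these members was -0.31 against -0.06 over all such genes. The 2 days differ in strain, read length and sequencer, and the control cells of day 7 had a median of 3479 CPM of large myelinated markers against 228 CPM at day 3, so the days are given side by side and not compared. Many SNT-side cells of day 7 carried little of the injury genes: Atf3 stood above the highest control cell in 12 of 33 SNT-side cells, against 30 of 41 at day 3. Glial markers had a median sum of 1499 CPM in SNT-side cells against 5221 CPM in control cells, nonpeptidergic markers 44.5 against 145, peptidergic markers 49.9 against 357 and C-LTMR markers 15.6 against 87.8. Of the 7 markers of large myelinated neurons, 4 lay above 1. Their sum had a median of 3351 CPM in SNT-side and 3479 CPM in control cells (means 4561 and 3648). The part of these markers in the ratios was not tested. The number below -1 was 4 of 46 when the highest cell of the higher side was left out for each gene, a step that by construction draws ratios toward 0.

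Kcna2 ranged at day 7 from 7.161 through 377 to 853 CPM in control cells and from 0 through 509 to 1414 CPM in SNT-side cells, with 11 SNT-side cells above and 4 below every control cell (log2 ratio 0.66). Kcna1 had medians of 795 and 817 CPM (log2 ratio 0.01). Kcnb2 was at medians of 148 and 159 CPM (log2 ratio 0.16), with 6 SNT-side cells above and 6 below the whole control range.

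Members below -1 with both sexes below 0 were led by Kcng4, a silent subunit, which ranged from 0 through 14.6 to 368 CPM in control and from 0 through 1.70 to 140 CPM in SNT-side cells (log2 ratio -2.48, -3.07 in female and -2.13 in male cells). Without the highest cell it was -1.83, still below the limit. Kcnd1 ranged from 51.6 through 98.0 to 210 CPM against 9.60 through 39.99 to 132 CPM, with 20 of 33 SNT-side cells below every control cell (log2 ratio -1.08, -1.15 in female and -1.06 in male cells). Kcnip4 had medians of 109 and 48.7 CPM (log2 ratio -1.20) and Kcnt1 98.2 and 45 CPM (-1.44), and both sexes were below -1 in each.

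Kcnh5 (medians 9.57 and 1.34 CPM, log2 ratio -1.60), Kcnk18 (15.7 and 0 CPM, -1.59), Kcnmb1 (5.39 and 3.5 CPM, -1.65), Kcnh7 (146 and 51.7 CPM, -1.02), Kcnn1 (13.8 and 4.87 CPM, -1.01) and Kcnn2 (19.3 and 3.2 CPM, -1.12) were also below -1. Of the 13 members below -1, 4 kept that size without the highest control cell, namely Kcng4, Kcnh5 (-1.35), Kcnk18 (-1.13) and Kcnmb1 (-1.23). Kcnd1 was at -0.99 and Kcnip4 and Kcnt1 at -0.82 and -0.83. The mean of Kcnip2 in control cells came from 1 cell at 646 CPM, and without it the ratio changed from -1.32 to 3.95, so that no direction is given. Kcnk13, a K2P gene at means of 5.09 CPM in control and 1.92 CPM in SNT-side cells, went likewise from -1.06 to 1.19. Kcng3, at a mean of 4.87 and 0.644 CPM, had a log2 ratio of -1.84, and -0.76 without its highest control cell.

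Kcnc1, a Kv3 pore gene, was the member highest above 1. It ranged from 0 through 24.9 to 79.6 CPM in control and from 5.22 through 53.8 to 867 CPM in SNT-side cells, of which 14 of 33 lay above every control cell (log2 ratio 2.42, 2.59 in female and 2.26 in male cells, and 2.21 without the highest cell). Kcnma1, the BK pore gene, ranged from 1.48 through 17.1 to 75.2 CPM against 1.62 through 37.1 to 146 CPM, with 9 cells above every control cell (log2 ratio 1.15, 1.42 in female and 0.82 in male cells). Kcnc2, the third with at least 10 CPM, had medians of 0 on both sides and 1 SNT-side cell at 297 CPM, without which its ratio of 1.84 was 0.12. The others above 1 were Kcnd2, Kcnj11, Kcnmb2 and Kcnt2, all with means under 10 CPM; Kcnmb2 was at 0 counts in every control cell.

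**Figure D3:**
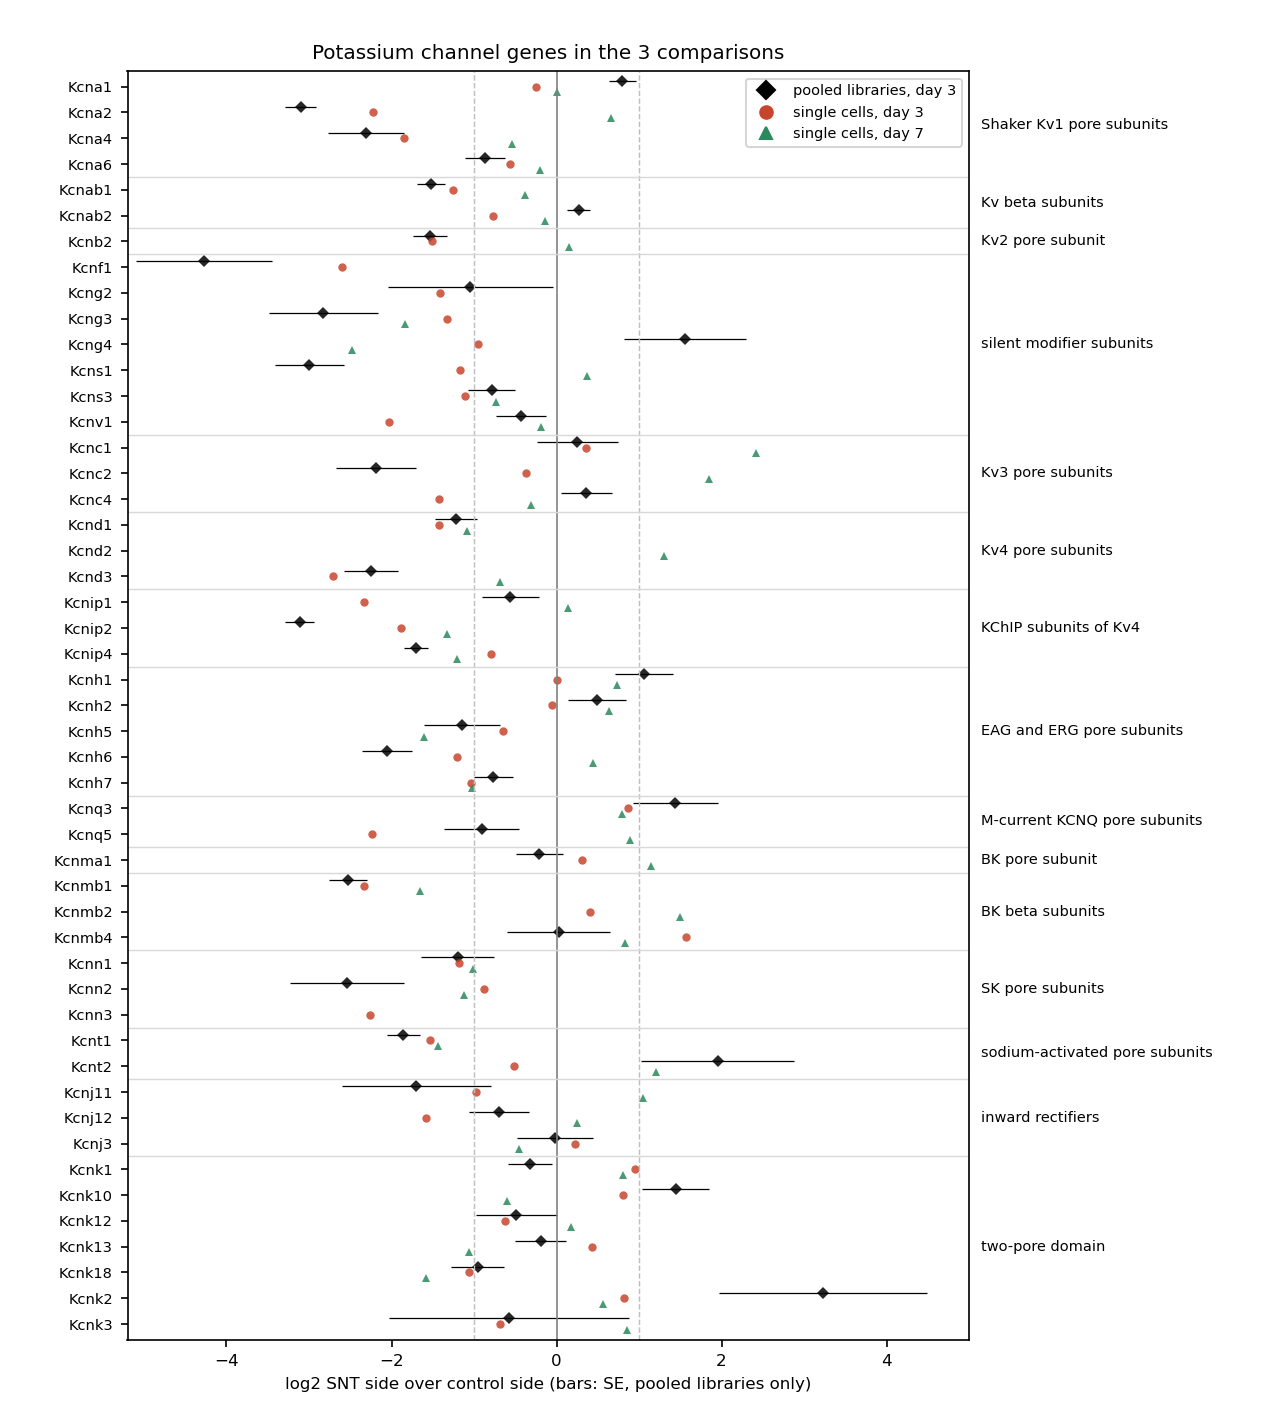
Log2 of SNT side over control side for each member in the pooled libraries (black, with SE), the single cells of day 3 (red) and of day 7 (green), by channel family, with dashed lines at -1 and 1; members under a mean of 1 CPM have no point. Kcnt1, Kcnmb1 and Kcnd1 lie left of -1 in all 3, and Kcna2 lies at -3.10, -2.23 and 0.66.

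Within the SNT side, members varied with the level of Atf3, a transcription factor induced by axotomy. The values are Spearman correlations over cells of one side and day, which differ in depth, and are given as a description for members with counts in the majority of the cells. Over the 41 cells of day 3 the lowest were Kcnb2 (-0.65), Kcnd1 (-0.63), Kcnab2 (-0.61) and Kcna2 (-0.51), and the highest Kcnmb4 (0.69) and Kcnma1 (0.46). Over the 33 cells of day 7 they were Kcnt1 (-0.74), Kcnab2 (-0.73), Kcnd1 (-0.71), Kcnd3 (-0.71), Kcnmb1 (-0.68) and Kcna2 (-0.65), and at the other end Kcnh1 (0.65), Kcnma1 (0.63) and Kcnq3 (0.62). Kcna2 thus tended to be lower in SNT-side cells with more Atf3 on both days, although its mean was not lower at day 7. Kcna1 had values near 0 on both days (0.03 and -0.05), and Kcnmb4 was at -0.19 at day 7. Kcnc1, the member with the highest ratio of day 7, was at -0.01 with Atf3 at day 3 and at -0.41 at day 7.

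**Figure D4:**
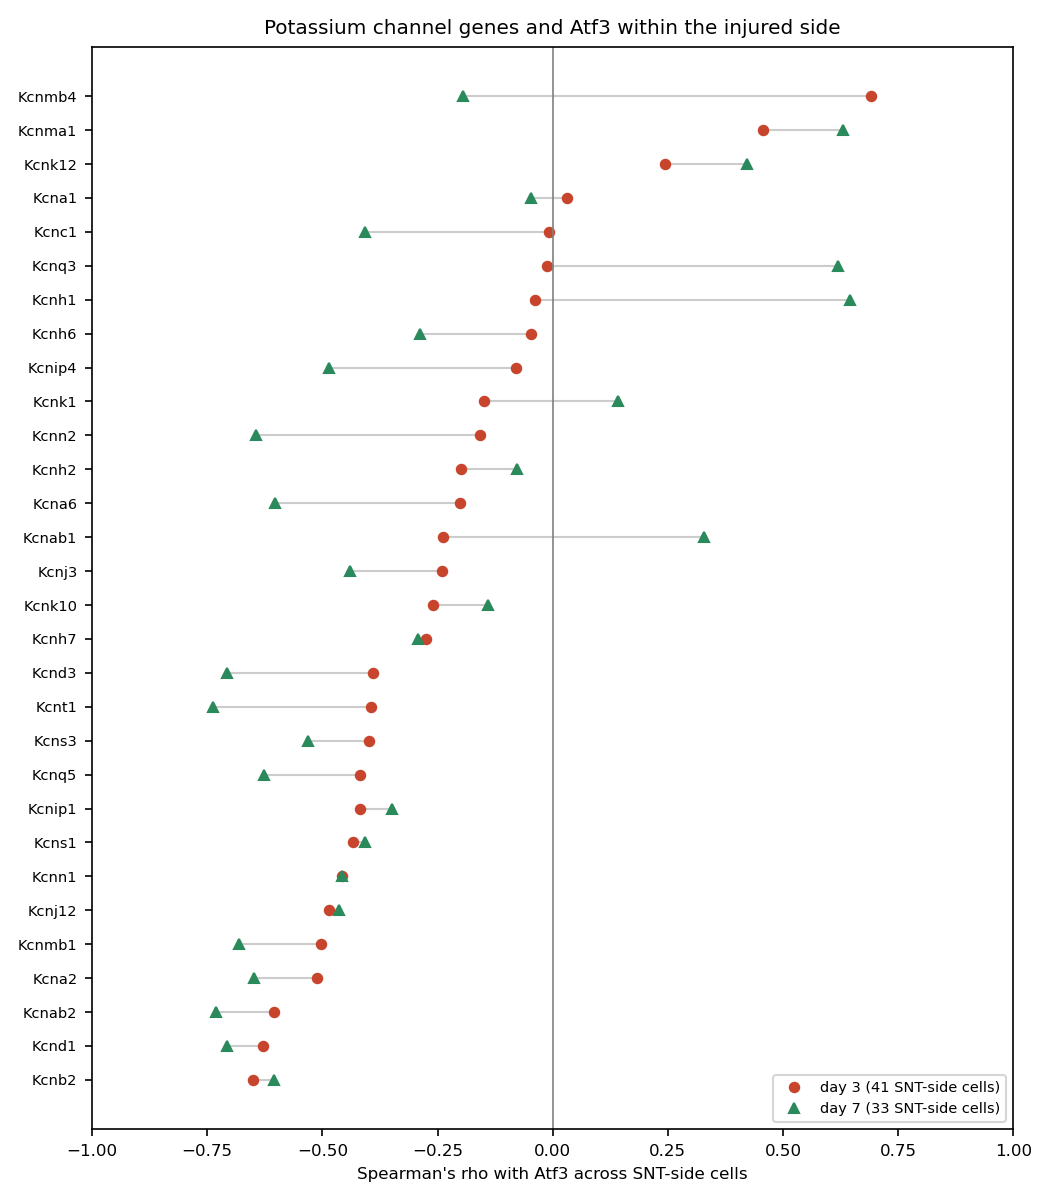
Spearman correlation of each member with Atf3 across the SNT-side cells of day 3 (red circles, 41 cells) and day 7 (green triangles, 33 cells), for members with a value on both days, sorted by day 3. Kcnb2, Kcnd1, Kcnab2, Kcna2 and Kcnmb1 lie below -0.5 on both days and Kcnma1 above 0.4 on both.

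Some members also varied with Nefh, the heavy neurofilament gene of myelinated neurons. Over the 18 control cells of day 3, Kcns3 (0.84), Kcna1 (0.66) and Kcnab2 (0.63) were high in cells with much Nefh, and Kcnh6 (-0.81), Kcnc2 (-0.73), Kcnt1 (-0.72) and Kcnip2 (-0.69) were low in them. Over the 14 control cells of day 7 Kcna1 was at 0.94, Kcng4 at 0.78, Kcnh5 at 0.77 and Kcnh6 at -0.60. Kcnab2 (0.25), Kcnt1 (-0.08) and Kcns3 (-0.23) did not keep their day 3 values there. Kcnc2 and Kcnip2 had counts in too few of these cells for a value. Over the 33 SNT-side cells of day 7 Kcnc1 was at 0.71 with Nefh. Kcnh6, Kcnt1 and Kcnip2 also fell in the pools, and Kcna2 fell there as far as Kcnip2. The value of Kcna2 with Nefh was 0.45 over the control cells of day 3 and -0.38 over those of day 7. The part of neuron type in the pooled falls was not tested.

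Partner subunits did not always vary together among cells. Kcna1 and Kcna2 had a Spearman correlation of 0.84 over the 18 control cells of day 3 and of 0.37 over the 41 SNT-side cells. Kcnma1 and Kcnmb4 were at 0.15 and 0.61 in these groups, and at 0.11 and -0.02 at day 7. Kcnb2 and its silent partner gene Kcns1 were at -0.09 and 0.34 at day 3 and at -0.40 and 0.80 at day 7. Kcnd3 was at 0.22 and 0.13 with Kcnip2, and at 0.42 and 0.50 with Kcnip4, at day 3.

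Of 43 other potassium channel subunit genes, 18 could be tested in the pools, with 2 higher and 2 lower (11.1% each). Of all genes, 8.85% were called higher and 7.114% lower. Kcnj10, the inward rectifier of satellite glia, fell from 93.4 CPM ± 35.2 (SD, n = 3) to 29.97 ± 3.65 (n = 3), beside the lower glial markers given above, and Kcnn4 fell from 74.2 ± 13.9 to 25.9 ± 5.83. The single neurons of day 3 did not show these falls, with log2 ratios of 0.09 for Kcnj10 and 0.44 for Kcnn4. Kcnk16, called higher, was under 10 CPM.

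Of 22 partner genes, 18 could be tested and 4 rose and 4 fell (22.2% each, against 8.85% and 7.114% of all genes). Dpp6 and Dpp10, the transmembrane partners of Kv4 channels, fell by 1.82 and 1.95 on the log2 scale (SE 0.15 and 0.18, adjusted p = 7.4e-13 and 1.1e-11), as did Abcc8 and Lgi1. Cntn2 and Cntnap2, the adhesion proteins that hold Kv1 channels beside the node, rose by 1.52 and 1.01 (SE 0.16 and 0.22, adjusted p = 2.9e-10 and 0.00038), as did Adam23 and Dlg2. In the single neurons of day 3, Dpp6 (-1.39), Dpp10 (-1.88), Abcc8 (-0.83), Lgi1 (-0.78), Cntn2 (0.70) and Dlg2 (1.05) had log2 ratios of the same sign as in the pools, whereas Cntnap2 (-0.63) and Adam23 (-0.42) had the opposite sign. Of 4 repressor genes known from studies of potassium channel promoters, Rest, Ehmt2, Dnmt3a and Mbd1, all were tested and none was called; none of them had an adjusted p below 0.05.

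Promoter sequences, from RefSeq on GRCm38.p6 and running from 250 bases before to 50 after a start site, were found for 39 members (56 start sites). They were searched on both strands, with no mismatch, for the AP-1 motif TGANTCA, the CRE motif TGACGTCA bound by ATF factors, and the left arm TTCAGCACC of the RE1 element bound by the repressor Rest. AP-1 was in 2 of the 56 (3.57%) and in 7.81% of all 32851 promoters, CRE in none and in 1.79%, and the left arm of RE1 in 1 (1.79%) and in 0.371%. The stretches with a match are shown because they set a member that fell beside one that did not. The first holds the left arm of RE1 and, 7 bases on, the letters GGACAG of its right arm, both in capitals, where the usual element has 2 bases between them. The others hold AP-1 in capitals. They lie at chr11:106007922-106008030 on the plus strand, chr5:49285687-49285786 on the minus strand and chr1:189344264-189344363 on the minus strand, and all end before the start site.
Kcnh6: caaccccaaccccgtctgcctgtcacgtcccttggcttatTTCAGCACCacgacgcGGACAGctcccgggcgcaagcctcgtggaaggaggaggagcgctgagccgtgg
Kcnip4: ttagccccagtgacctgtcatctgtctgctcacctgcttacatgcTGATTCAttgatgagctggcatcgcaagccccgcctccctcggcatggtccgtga
Kcnk2: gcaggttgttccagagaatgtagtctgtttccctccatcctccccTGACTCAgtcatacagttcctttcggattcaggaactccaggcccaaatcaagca
The RE1 arms with 7 bases between them were in 2 of the 32851 promoters. This spacing was read from the match in Kcnh6, so its count over the promoters is only a description. With the usual 2 bases the arms were in 4 promoters and in no member. The letters GGACAG alone were in 22.2% of all promoters and in 25% of those of the members. Kcnh6 and Kcnip4 fell in the pools (log2 changes -2.05 and -1.70), and Kcnk2 did not pass and lay above 0. None of the motifs was found in the window of Kcna2.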

How the data were processed

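Expected counts per gene were analysed for 117 single neurons and 6 libraries of pooled neurons. The authors called bases with CASAVA 1.8.2, mapped reads to mm9 by Bowtie2, left out ribosomal RNA, and made the deposited expected counts by RSEM over exons of RefSeq genes. The tables are named TPM, but totals range from 223967 to 2003817, and 60.7% to 93.6% of a library's values above 0 are whole numbers. Pools of 50 neurons, or 106 by the design text, were split in 3 after lysis. CPM of pooled libraries divide by the total over tested genes times the TMM factor, those of cells and of marker sums by the library total.

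Counts of pooled libraries were rounded, filtered at a mean of 1 CPM, scaled by TMM and tested with edgeR 4.0.16 (limma 3.58.1, R 4.3.3, prior count 0.125). DESeq2 1.42.0 and other alternatives are given at the end. The design foresaw this test for expected counts. The test was tried on simulated data. Same-numbered libraries of the 2 sides deviated together with correlations of 0.07, -0.01 and -0.01, so numbers were not taken as pairs.

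Cells, with Python 3.11.15, numpy 2.4.6, pandas 2.3.3, scipy 1.17.1 and matplotlib 3.10.9, were compared by log2 ratios of mean CPM + 1, without tests. Intervals are 95% exact ones and cover counting error only, since copies made in amplification were counted. Lengths are the longest transcripts of GENCODE M21 (GRCm38); 26 members have an opposite-strand gene there, and use of strand in counting is not given in the sources used here. Spike-ins were not analysed here.

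Members, lists and tests were chosen with earlier results of these data known. Members are named with all values where called in pools, or beyond 1 in cells, at 10 CPM or more on the higher side; Kcna2, Kcng3 and Kcnn1 always, and non-members where called at 10 CPM or more, of which 1 is not reported here. Kcnk16, Kcnk2, Kcnj12 and the correlated pairs beyond these were chosen after their values were seen. Leaving out the highest cell was an alternative added after seeing the data. Protein sequences were not used here.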

Additional observations from a re-analysis of the deposited data

Results flagged for a closer look

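For 3 members the 2 sexes of day 7 lay on opposite sides of 0, each beyond 1 in log2 ratio and with at least 10 CPM on a side; the differences between the sexes were not tested, since no label names an animal. Kcnip2 was at 4.68 over female cells (16 SNT-side, 7 control) and at -2.89 over male cells (17 and 7). It had 0 counts in all 7 female control cells, so the female value depends on the 1 CPM added; against a floor of 3 counts over the group the SNT-side level was at least 39.99-fold higher, a bound for counting error only. The SNT-side median was 3.84 CPM, 4 of 16 cells exceeded 10 CPM, and the mean of 24.7 CPM was 14.7 without the highest cell (174.7 CPM). The male value rests on 1 control cell at 646 CPM. Kcnq5 was at -1.88 over female cells (medians 29.5 CPM in control and 0 in SNT-side cells) and at 1.99 over male cells (15.3 and 42.1 CPM), where 11 of 17 SNT-side cells exceeded 10 CPM. Kcnv1 was at -3.61 over female cells, with 3 of 7 control and 1 of 16 SNT-side cells above 10 CPM, and at 1.58 over male cells, with 3 of 7 and 8 of 17 above.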

How the results depend on the processing

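Of the 20 members called in the pools, 16 kept their call and direction in every fit that held them, and Kcnh1, Kcnk10, Kcnn1 and Kcnq3 lost it 21 times in all, over 10 fits. Members called lower numbered 15 to 21 throughout. Members called higher were 1 with library size alone, DESeq2 or thinning to the smallest library, against 3, and 1 to 4 when a library was left out. The median log2 change of the members was -0.99 both with library size alone and with thinning, and -0.91 to -0.67 when a library was left out. Members never called changed sign near 0: Kcnmb4 with library size alone (-0.13), Kcnc1 and Kcnk3 with thinning (-0.14 and 0.10), and, over the libraries left out, Kcnc1 (-0.19 to 0.51), Kcnj3 (-0.36 to 0.28), Kcnk3 (-1.64 to 0.065), Kcnk12 (-0.79 to 0.28) and Kcnmb4 (-0.26 to 0.75). With the library number as a replicate block, 17 members were lower and 3 higher (median -0.79), as without it, and no call of a member changed.

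Day 3 members below -1 in cells, 24 as reported, were 16 with a pseudocount of 10, 18 without the highest cell and 21 to 26 otherwise. Day 3 members above 1 in cells, 1 as reported, were 2 with medians, summed counts, a pseudocount of 0.1, TMM factors or the outlier cells, 3 with thinning to 200000 counts and 0 with a pseudocount of 10. At day 7, members above 1 were 4 with medians, 1 with a pseudocount of 10 and 2 at a mean of at least 10 CPM, and members below -1 were 7 with a pseudocount of 10 and 4 without the highest cell, which by construction draws ratios toward 0. Ratios that changed sign there were Kcnip2 (3.95) and Kcnk13 (1.19) without the highest cell, Kcnip2 (4.68), Kcnk13 (1.63) and Kcnt2 (-2.01) in females only, and Kcnc2 (-0.38) and Kcnj11 (-0.12) in males only. The causes were not tested. Day 7 had no outlier cells to restore. Control pools were shallower than SNT pools, so that members under 10 CPM rest on few counts there.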
